A study of Rattus norvegicus with 9 samples.

Results

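The transcripts of 10 collagen genes that build bone, tendon, skin and other fibrous tissue were followed in knee cartilage of rats. The 10 genes were Col1a1, Col1a2, Col3a1, Col5a1, Col5a2, Col6a1, Col6a2, Col6a3, Col12a1 and Col14a1, taken by gene name from a table of 32043 genes, in which 44 genes carry a collagen chain name. All 10 passed the filter of a mean of at least 0.5 FPKM (fragments per kilobase of gene length, scaled to the size of the library) over the 9 libraries, as did 13898 genes of the table.

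RNA from cartilage was sequenced in 3 groups of 3 libraries. Male Sprague-Dawley rats, 8 weeks old at purchase, were used in all groups. Control rats had the joint capsule opened and sutured only. Model rats had knee osteoarthritis (KOA) made by the modified Hulth method, in which the medial collateral and anterior cruciate ligaments are cut out and the medial meniscus is removed, followed by 30 min of forced activity a day for 4 weeks. SYD-H rats had KOA made in the same way and then 4 weeks of gavage. They were given an extract of Shengyu decoction (SYD), a prescription of botanical drugs, at the highest dose level. The samples of this group are labelled syd, while their columns in the table are headed CXTB, so the assignment rests on the sample titles and descriptions, and the dose level is from the study's text. The study also had a group given CXB as a positive control, and the heading alone does not name the treatment. Tissue was taken 8 weeks after surgery. The model is a joint made unstable by surgery in young adult males, and all animals, controls included, had the joint opened. Nothing states that each library came from a different animal, so the tests below measure the spread between these libraries.

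Type I collagen is a triple helix of 2 chains from Col1a1 and 1 from Col1a2 and is the main protein of bone, tendon and scar. Type III collagen, from Col3a1, forms thin fibrils with it in soft and healing tissue, and type V, from Col5a1 and Col5a2, sits inside type I fibrils and sets their width. Type VI, from Col6a1, Col6a2 and Col6a3, makes beaded filaments around cells, among them chondrocytes, and types XII and XIV, from Col12a1 and Col14a1, lie on the surface of fibrils. Healthy hyaline cartilage is known instead for type II collagen, from Col2a1, and type I marks fibrocartilage or bone.

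Promoter sequences of 3 members are shown: Col1a2, partner of Col1a1, and the pair Col5a1 and Col5a2. Ratios of these chains are described below, as are those of the type VI chains, whose sequences are not shown. RefSeq entries of the rat build GRCr8 matched 5 of the 10 members (Col1a2, Col5a1, Col5a2, Col6a1 and Col6a3), each as 300 bases that run from 250 before to 50 after the annotated start. Lower case is the gene's own strand from 5′ to 3′, and capitals mark a match to the TATA box letters TATAAA, the CCAAT box or the GC box letters GGGCGG on either strand (a CCAAT box on the other strand reads ATTGG), none of which overlap each other. The Col1a2 window lies at chr4:33518307-33518606 on the plus strand, the Col5a1 window at chr3:31606630-31606929 on the plus strand and the Col5a2 window at chr9:55090102-55090401 on the minus strand.
Col1a2: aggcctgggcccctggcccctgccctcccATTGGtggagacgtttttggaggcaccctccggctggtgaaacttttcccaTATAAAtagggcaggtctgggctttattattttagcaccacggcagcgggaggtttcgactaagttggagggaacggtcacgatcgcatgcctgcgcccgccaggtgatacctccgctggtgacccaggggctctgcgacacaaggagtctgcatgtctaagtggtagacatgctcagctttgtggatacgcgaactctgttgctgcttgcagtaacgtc
Col5a1: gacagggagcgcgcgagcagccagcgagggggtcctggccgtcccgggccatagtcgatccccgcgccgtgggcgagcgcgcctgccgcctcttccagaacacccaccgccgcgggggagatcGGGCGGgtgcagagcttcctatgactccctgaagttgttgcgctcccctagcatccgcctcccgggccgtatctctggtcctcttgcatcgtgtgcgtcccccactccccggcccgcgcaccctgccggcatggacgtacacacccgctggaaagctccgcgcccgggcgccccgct
Col5a2: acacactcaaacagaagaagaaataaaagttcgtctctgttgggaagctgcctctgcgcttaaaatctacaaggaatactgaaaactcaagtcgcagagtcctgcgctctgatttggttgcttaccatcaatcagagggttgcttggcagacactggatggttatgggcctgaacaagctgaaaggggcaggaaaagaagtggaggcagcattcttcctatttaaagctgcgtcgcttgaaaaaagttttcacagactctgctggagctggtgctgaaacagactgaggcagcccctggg
In Col1a2 a TATAAA begins at position -170 relative to the annotated start and a CCAAT on the other strand at position -221. In Col5a1 a GGGCGG begins at position -127. No match was found in the windows of Col5a2, Col6a1 and Col6a3. Over all 33469 promoters of the same length, 14.2% held TATAAA, 37.5% CCAAT and 33.1% GGGCGG. A match is a run of letters and not evidence of binding.

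The libraries differed in make-up in ways that touch every value below. Each held between 14914121 and 19510537 reads, recovered as whole reads from the deposited FPKM. The share of mitochondrial reads was 4.05% to 4.86% in the control libraries, 90.7%, 39.5% and 81.4% in model libraries 1, 2 and 3, and 23.7%, 34.7% and 72.7% in SYD-H libraries 1, 2 and 3. This left 1744769 non-mitochondrial reads in model library 1, 3611325 in model library 3 and 5153851 in SYD-H library 3, against 14306782 to 17373645 in the controls. The labelled tissue was only partly visible in its markers: the summed FPKM of 10 chondrocyte markers was 10605 and 5571 in control libraries 1 and 3, but 432 in control library 2, 153 to 876 in the model and 98.9 to 1286 in SYD-H. Markers of marrow leukocytes summed to 2804 to 5107 FPKM in the controls, 70.3 to 7544 in the model and 503 to 3046 in SYD-H. These sums are mostly S100a8 and S100a9, and 6 of the 8 markers (Mpo, Cd79a, Ctsg, Elane, Cd79b and Ptprc) were called lower, by the criteria given below, in the model and in SYD-H against control, with medians of the 8 of -3.49 and -3.56, beside 11.2% and 9.22% of all genes called lower. In bulk tissue of this kind, a change in the number of cells of a type and a change in RNA per cell cannot be told apart.

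The 2 chains of type I collagen were the most abundant of the 10 in every library. Col1a1 (ENSRNOG00000003897, chromosome 10, 79883622 to 79900624, plus strand, positions as in the deposited table, whose rat build is not given in the sources used here) was at 4426, 1962 and 3225 FPKM in control libraries 1, 2 and 3, at 1211, 4944 and 691 FPKM in the model and at 6597, 5957 and 3991 FPKM in SYD-H. The model spans the widest range, 7.15 times from lowest to highest, with library 2 above all controls and libraries 1 and 3 below all of them. Among nuclear protein-coding genes Col1a1 ranked 3 in each control library and 1, 1 and 2 in SYD-H libraries 1, 2 and 3, while in model libraries 1, 2 and 3 it ranked 10, 1 and 46. Col1a2 (ENSRNOG00000011292, chromosome 4, 32563381 to 32598867, plus strand) followed it at 2315, 1087 and 1861 FPKM in the controls, 648, 2921 and 450 FPKM in the model and 3718, 3215 and 2258 FPKM in SYD-H. In both genes SYD-H and the model overlapped because SYD-H library 3 was below model library 2, and model libraries 1 and 3 were below all SYD-H libraries.

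Type III collagen varied more than type I. Col3a1 (ENSRNOG00000003357, chromosome 9, 47374593 to 47410547, plus strand) was at 116, 5.77 and 103 FPKM in the controls, 60.4, 722 and 162 FPKM in the model and 542, 1363 and 149 FPKM in SYD-H. Every SYD-H library was above every control library, whereas model library 1 lay inside the control range. Control library 2 was the lowest of the 9 for Col3a1, and within the controls the highest library was 20.2 times the lowest.

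The type V chains stand next to and apart from type III in the genome. Col5a2 (ENSRNOG00000003736, chromosome 9, 47448736 to 47598154, minus strand) is the neighbour of Col3a1 on the opposite strand. Its level was 68.7, 27.6 and 50.1 FPKM in the controls, 27.4, 130 and 20.5 FPKM in the model and 174, 167 and 86.2 FPKM in SYD-H, so that all SYD-H libraries again exceeded all controls. Col5a1 (ENSRNOG00000008749, chromosome 3, 11208512 to 11354588, plus strand) was at 42.8, 11.5 and 29.7 FPKM in the controls, 4.66, 40.6 and 4.50 FPKM in the model and 57.1, 82.4 and 19.7 FPKM in SYD-H, and its groups overlapped.

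Of the 3 chains of type VI collagen, Col6a3 had the lowest FPKM in each of the 9 libraries. Col6a1 (ENSRNOG00000001249, chromosome 20, 11905957 to 11924597, plus strand) was at 88.5, 11.5 and 57.3 FPKM in the controls, 11.9, 136 and 32.0 FPKM in the model and 169, 231 and 42.1 FPKM in SYD-H. Col6a2 (ENSRNOG00000001254, chromosome 20, 12021767 to 12057564, plus strand), which lies close by, was at 69.8, 11.9 and 42.9 FPKM in the controls, 21.1, 107 and 37.2 FPKM in the model and 152, 200 and 43.1 FPKM in SYD-H. SYD-H libraries 1 and 2 were above all controls in both genes and SYD-H library 3 was inside the control range. Col6a3 (ENSRNOG00000019648, chromosome 9, 91361583 to 91439471, minus strand), the long chain of the filament, was at 35.9, 6.26 and 24.3 FPKM in the controls, 9.68, 67.5 and 6.51 FPKM in the model and 75.4, 101 and 24.0 FPKM in SYD-H.

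The 2 fibril-surface collagens took different courses. Col12a1 (ENSRNOG00000058470, chromosome 8, 80547593 to 80665686, minus strand) was at 21.6, 2.64 and 9.74 FPKM in the controls, 0.533, 23.0 and 0.50 FPKM in the model and 47.8, 34.6 and 12.2 FPKM in SYD-H. Its values in model libraries 1 and 3 stand on 28 and 48 reads, with exact 95% Poisson intervals of 18.6 to 40.5 and 35.4 to 63.6 reads that cover counting error only. Col14a1 (ENSRNOG00000026415, chromosome 7, 86722094 to 86937214, plus strand) was at 3.95, 0.211 and 2.67 FPKM in the controls, 4.55, 8.75 and 25.9 FPKM in the model and 1.44, 20.2 and 7.96 FPKM in SYD-H. Among the members it alone was highest in model library 3, and its model libraries all exceeded the controls.

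**Figure D1:**
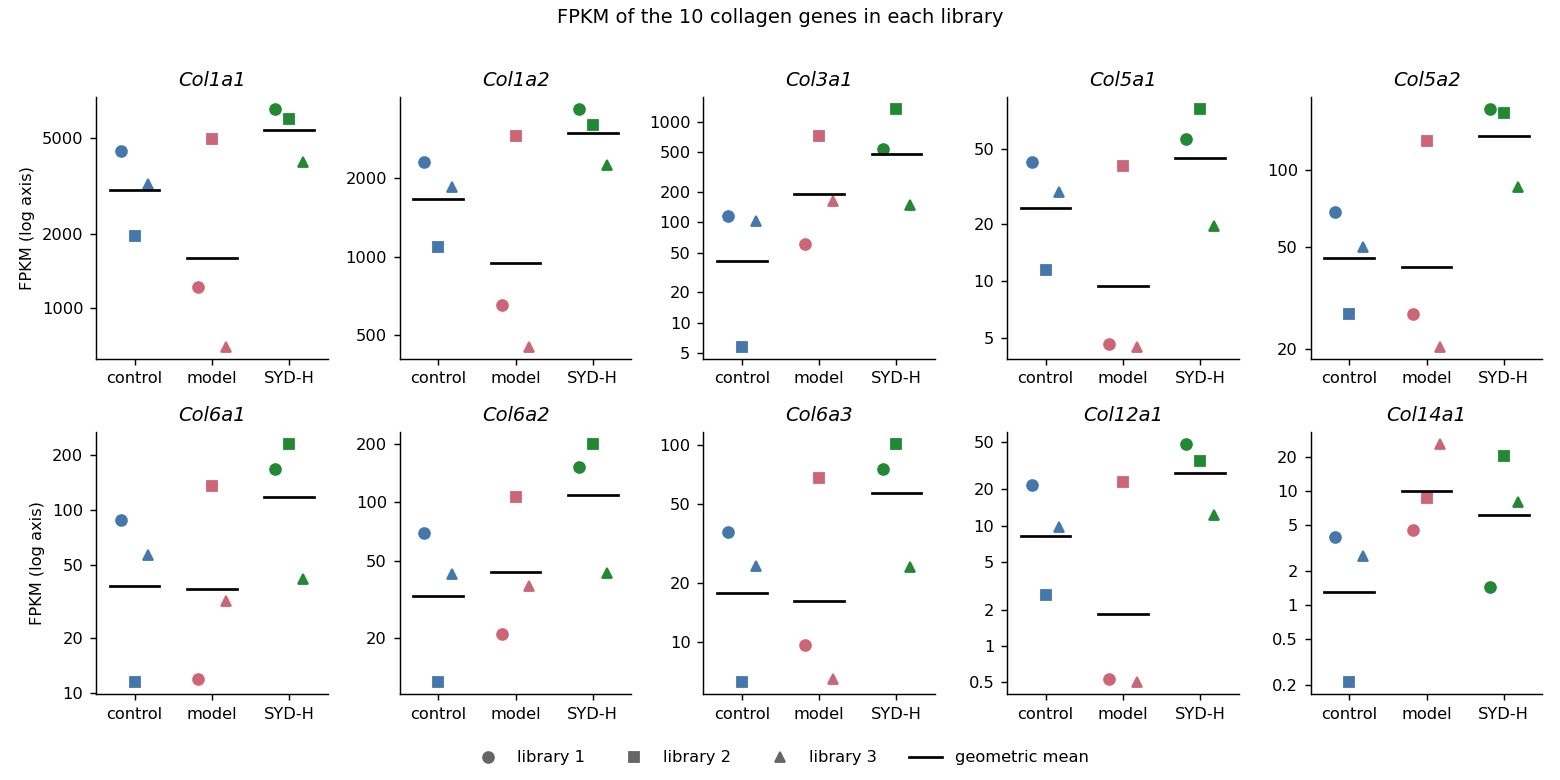
FPKM of each of the 10 collagen genes (log axis) in the 3 control, 3 model and 3 SYD-H libraries, with the symbol giving the library number and the bar the geometric mean of the group. In 9 of the 10 genes model library 2 stands above model libraries 1 and 3, and for Col14a1 model library 3 is the highest at 25.9 FPKM.

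Ordered by the mean FPKM of a group, the series ran Col1a1, Col1a2, Col3a1, Col6a1, Col5a2 and Col6a2 in the controls, the model and SYD-H alike. In the controls Col1a1 at 3204 ± 1232 and Col1a2 at 1754 ± 621 FPKM (SD, n = 3) overlapped each other and stood clear of Col3a1 at 74.9 ± 60.3. In SYD-H the means were 5515 ± 1358, 3064 ± 742 and 685 ± 619 FPKM, and neither type I gene overlapped its lower neighbour. In the model the same genes had 2282 ± 2320, 1339 ± 1373 and 315 ± 356 FPKM and all neighbours overlapped. From Col3a1 downwards no neighbours were separated in any group. Col14a1 was the lowest member in the controls and SYD-H, with means of 2.28 ± 1.90 and 9.85 ± 9.50 FPKM, and Col12a1 was the lowest in the model at 8.02 ± 13.0 FPKM.

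Together the 10 genes took 8.27%, 3.89% and 6.68% of the non-mitochondrial reads in control libraries 1, 2 and 3, 2.27%, 11.8% and 1.41% in the model, and 13.6%, 13.8% and 8.07% in SYD-H. The 95% Wilson intervals of the smallest shares were 2.25% to 2.29% in model library 1 and 1.40% to 1.43% in model library 3. They cover counting error only and not the spread between libraries. Within the FPKM of all 44 collagen genes, type I chains held 36.4%, 83.8% and 45.5% in the controls, 67.2% to 82.0% in the model and 73.8% to 90.3% in SYD-H. Control library 2 therefore had a type I share within the range of SYD-H, above those of controls 1 and 3. The type II share was 45.0%, 9.58% and 39.9% in the controls, 21.9%, 0.407% and 3.43% in the model and 4.67%, 3.46% and 0.613% in SYD-H. The type III share was 0.159% to 0.917% in the controls, 2.19% to 9.89% in the model and 2.15% to 11.0% in SYD-H, so both operated groups lay above the controls without overlap.

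**Figure D2:**
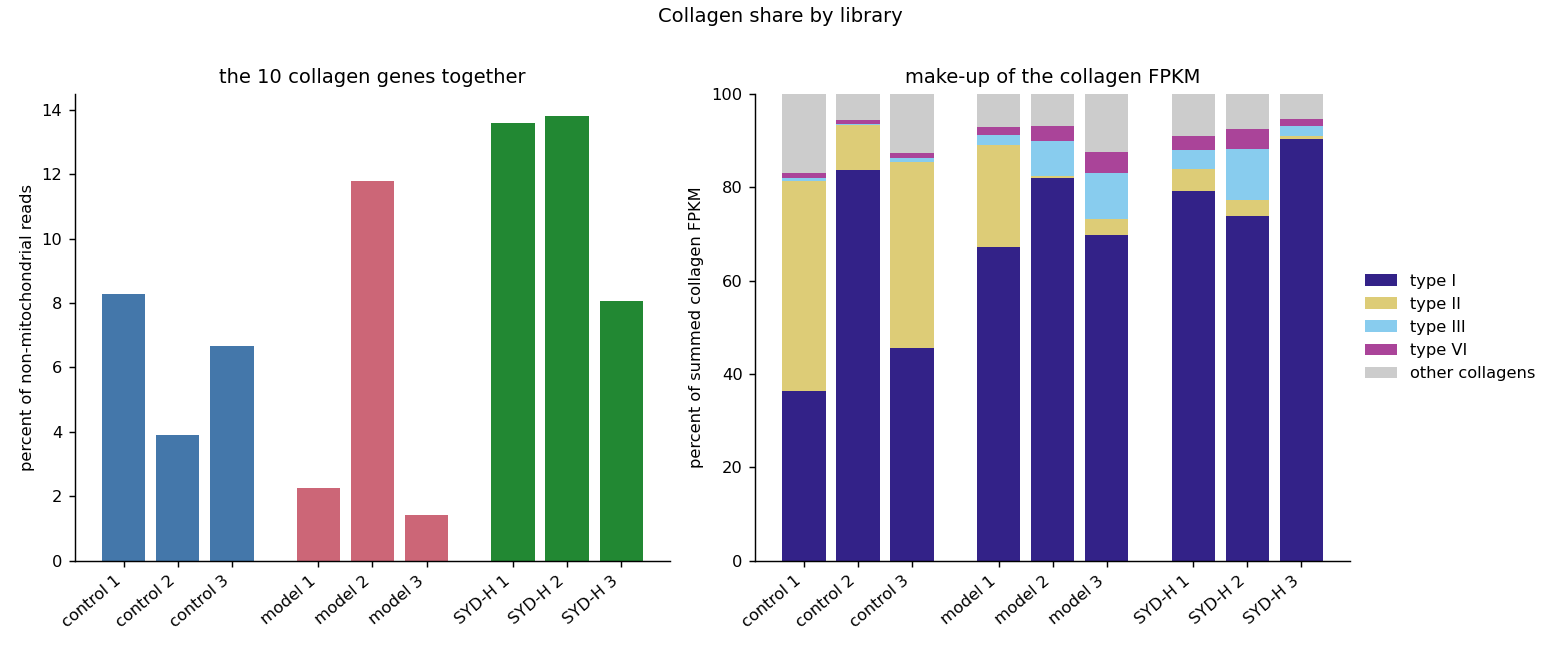
Left, percent of non-mitochondrial reads taken by the 10 collagen genes in each library; right, percent of the summed FPKM of all collagen genes held by type I, II, III and VI and by the others. The shares on the left reach 13.8% in SYD-H library 2 and 1.41% in model library 3, and the type II share is highest in control libraries 1 and 3, at 45.0% and 39.9%.

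To ask how induction of KOA changed these genes, the model was compared with the control group by limma on log2(FPKM + 1), 3 libraries against 3. Following the criteria of the study, a gene is called when its unadjusted p is under 0.05 and its log2 change is over 1 in size, and the pseudocount makes the changes of weakly expressed genes look smaller. Of the 10 genes, 1 was called: Col14a1 rose by 2.02 (SE 0.78, unadjusted p = 0.0397, limma adjusted p = 0.233), from a mean of 2.28 to 13.1 FPKM. Of all genes tested 14.7% were called, so 1 in 10 is near the background. Col14a1 was also the 1 member with all model libraries on one side of the controls, against 28.7% of all genes.

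The other 9 genes did not pass. Col3a1 had the largest estimate, a log2 difference of 2.15 (SE 1.37, limma adjusted p = 0.452), with means of 315 FPKM in the model and 74.9 in the controls. Col12a1 was at -1.33 (SE 1.26, limma adjusted p = 0.609) and Col5a1 at -1.23 (SE 0.91, limma adjusted p = 0.517). The type I genes were at -0.92 (Col1a1, SE 0.99) and -0.82 (Col1a2, SE 0.87), and Col5a2 and the type VI genes lay between -0.11 and 0.40. The median of the 10 was -0.11, beside -0.23 for all genes, and 2 of the 10 exceeded 1, beside 7.01% of all genes. No member had an adjusted p under 0.05, beside 2.59% of all genes, and Col14a1 alone had an unadjusted p under 0.05, beside 19.2%. With voom on recovered reads 0 members were under an adjusted 0.05, beside 462 of 13898 genes.

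Single libraries changed this comparison. Without model library 2, 4 genes were called, all lower in the model (Col1a1, Col1a2, Col5a1 and Col12a1), beside 24.1% of all genes called and 18.4% called lower, and the median of the 10 was -1.02. Without control library 2 the median was -0.84 and Col3a1 was at 0.81. The call of Col14a1 was lost without control library 2 or 3, without model library 2 or 3, with a pseudocount of 0.1 (limma unadjusted p = 0.0568) and with no filter (limma unadjusted p = 0.0514). On the TPM scale, where mitochondrial reads take part in the total and the median of all genes falls to -2.60, Col14a1 was at -0.21 and 3 genes were called lower (Col1a1, Col1a2 and Col5a1), beside 74.9% of all genes, so the share of members is below that background. Under quantile normalization Col1a1 was at -4.41 and Col1a2 at -3.05, both called lower (limma unadjusted p = 0.00351 and 0.0295), beside 7.87% of all genes called lower.

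To ask what SYD did to the operated joint, SYD-H was compared with the model. Of the 10 genes 9 had a log2 difference above 1, beside 14.5% of all genes, and their median was 1.66, beside 0.22 for all genes. Only Col12a1 was called: it rose by 2.90 (SE 1.17, unadjusted p = 0.0447, limma adjusted p = 0.723), from a mean of 8.02 to 31.5 FPKM, and its libraries overlapped through model library 2. This call was lost with voom on recovered reads (2.07, unadjusted p = 0.0967), which called 4 other members (Col1a1, Col1a2, Col5a1 and Col5a2) beside 7.76% of all genes, and with no filter, which called 0 members beside 1.92%. The background of the comparison as first given is 4.15% called. In 0 of the 10 genes were the groups free of overlap, beside 11.1% of all genes.

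For the other members SYD-H minus model was 1.75 (SE 0.91) for Col1a1, 1.66 (SE 0.81) for Col1a2, 2.09 (SE 0.92) for Col5a1 and 1.67 (SE 0.72) for Col5a2. The type VI genes were at 1.62, 1.30 and 1.72 (Col6a1, Col6a2 and Col6a3) and Col3a1 at 1.31 (SE 1.12). All of these have limma adjusted p of 0.723 or 0.725. Col14a1 went the other way, at -0.55 (SE 0.93, limma adjusted p = 0.85), with means of 9.85 FPKM in SYD-H and 13.1 in the model. Its direction turned without SYD-H library 1 (0.28), without model library 3 (0.07) and on the TPM scale (0.70). Of the 13898 genes tested, 0 had an adjusted p under 0.05 here with limma or with voom on recovered reads (2 of 21960 genes did in limma with no filter), while in limma 731 had an unadjusted p under 0.05, 1 of them a member.

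The size of this comparison also changed with single libraries. Without model library 2, 8 genes were called, all higher in SYD-H, with a median of 2.50, beside 18.0% of all genes called and 13.8% called higher. Without SYD-H library 3, 2 were called (Col5a1 and Col6a2), beside 3.73% of all genes, and without model library 1 or 3, or without SYD-H library 1 or 2, none was, beside 2.27% to 3.04% of all genes. The estimates stayed above 0 in at least 9 of the 10 genes in each of these. Since the model enters this comparison and the preceding one, a low value in the model moves both, and the values are not independent support for each other.

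To ask how the treated joint stood against one that was only opened and sutured, SYD-H was compared with the control group. All 10 genes had a log2 difference above 0 and 7 of them one above 1, beside 9.19% of all genes, and their median was 1.56, beside 0.00. Of the 10, 2 were called, beside 16.5% of all genes. Col5a2 rose by 1.55 (SE 0.43, unadjusted p = 0.0111, limma adjusted p = 0.0581), from a mean of 48.8 to 143 FPKM, and Col3a1 rose by 3.47 (SE 1.35, unadjusted p = 0.0435, limma adjusted p = 0.133), from 74.9 to 685 FPKM. These 2 were also the members without overlap between groups, beside 42.5% of all genes, so the share of members is below the background. Both groups also enter the other comparisons, so that the values of the 3 comparisons are not independent.

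The type VI genes were at 1.57, 1.70 and 1.62 (Col6a1, Col6a2 and Col6a3), Col12a1 at 1.57 and Col14a1 at 1.46, each with a 95% interval that includes 0. Col1a1 at 0.83 (95% interval -1.01 to 2.67), Col1a2 at 0.84 and Col5a1 at 0.86 had the smallest differences. No member passed an adjusted p of 0.05 with limma, beside 17.3% of all genes, and 2 had an unadjusted p under 0.05, beside 34.5%. With voom on recovered reads 1 member was under an adjusted 0.05, as were 2837 of 13898 genes. Without SYD-H library 3, 5 genes were called (Col3a1, Col5a2, Col6a2, Col6a3 and Col12a1), beside 18.7% of all genes. Without control library 2, the lowest control for all 10 genes, or without SYD-H library 2, only Col5a2 was, beside 12.9% and 16.8% of all genes, so these shares of members are below the background. The call of Col3a1 was also lost without SYD-H library 1 (unadjusted p = 0.103 from limma) and with no filter (unadjusted p = 0.0529). Under TPM no member was called, beside 43.4% of all genes called and 42.5% called lower. On that scale 7 of the 10 were above 0, with the median of all genes at -1.31, and under quantile normalization Col1a1 was called lower, at -1.93.

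**Figure D3:**
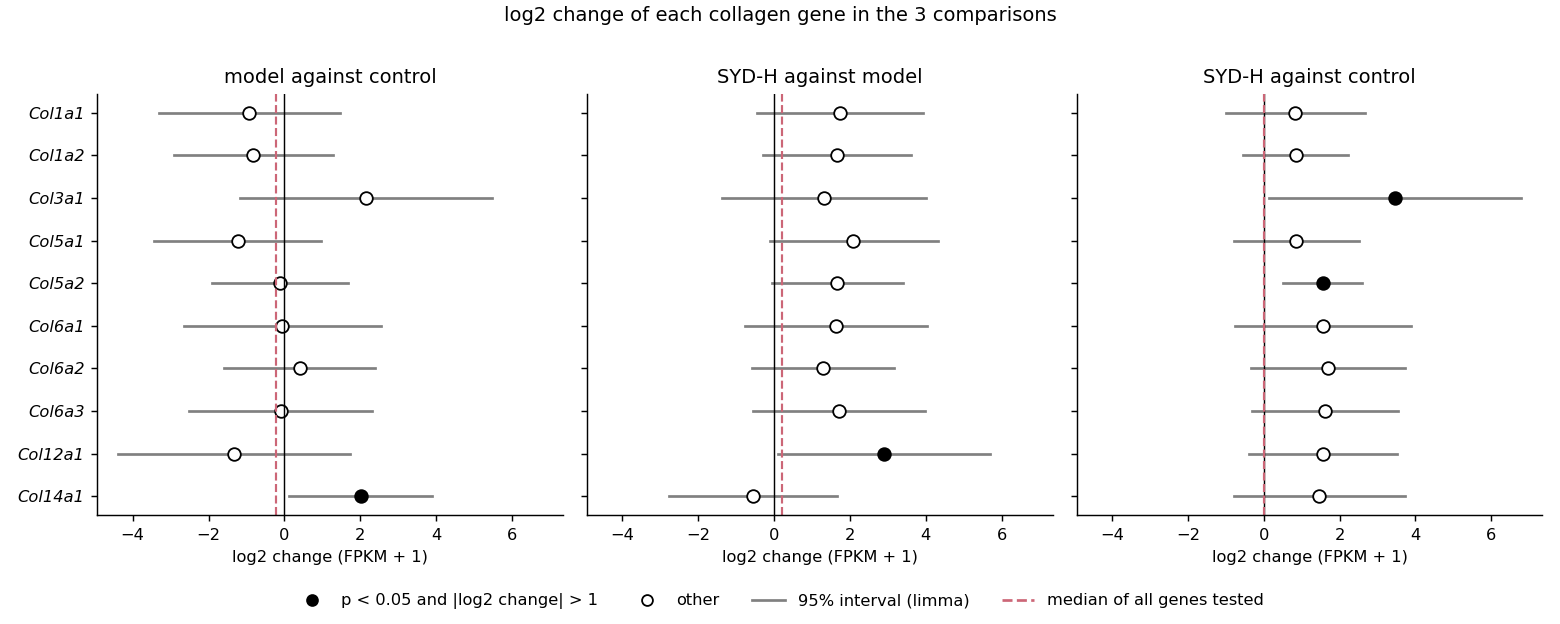
log2 change of FPKM + 1 of each collagen gene in the 3 comparisons (point) with its 95% interval from limma (line); filled points have an unadjusted p under 0.05 and a change over 1, and the dashed line is the median of all genes tested. In SYD-H against model 9 points lie above 1 and Col14a1 lies at -0.55.

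Ratios between chains in the same library do not depend on the scaling between libraries. They were tested by two-sided exact permutation, where 3 against 3 libraries cannot give a p below 0.1 and 3 groups cannot give one below 0.00357, with adjustment over 7 ratios. Col1a1 to Col1a2 was the tightest: it lay between 1.54 and 1.91 in all 9 libraries, with means of 1.82 ± 0.0899 in the controls, 1.70 ± 0.167 in the model and 1.80 ± 0.0475 in SYD-H (SD, n = 3, exact permutation p over 3 groups = 0.443). Over these libraries the level of Col1a1 itself ran from 691 to 6597 FPKM.

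Col3a1 to Col1a1 was 0.0263, 0.00294 and 0.0318 in the controls, 0.0499, 0.146 and 0.234 in the model and 0.0822, 0.229 and 0.0373 in SYD-H. Both operated groups lay above all controls. On the log2 scale the model differed from the controls by 3.15 (SE 1.28) and SYD-H by 2.72 (SE 1.34), each with the smallest exact permutation p possible, 0.1, and adjusted p of 0.233 and 0.35. Over the 3 groups the exact permutation p was 0.0571 and adjusted 0.25. Without control library 2 the differences were 2.05 and 1.62. SYD-H and the model overlapped, with a difference of -0.43 (SE 1.00, exact permutation p = 0.7).

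Col5a1 to Col5a2 was 0.623, 0.416 and 0.593 in the controls, 0.170, 0.312 and 0.219 in the model and 0.328, 0.492 and 0.229 in SYD-H. All model libraries were below all controls, by 1.24 on the log2 scale (difference -1.24, SE 0.31, exact permutation p = 0.1, adjusted p = 0.233), and SYD-H overlapped both. Over the 9 libraries this ratio ran from 0.170 to 0.623, and over the 3 groups the exact permutation p was 0.0714 and adjusted 0.25. The Col5a1 values of model libraries 1 and 3 stand on 118 and 208 reads, and those of Col5a2 on 615 and 842. In model library 2 Col5a1 and Col5a2 stand on 7474 and 21251 reads. The part of the read numbers in the ratio was not tested.

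The type VI ratios did not separate the groups. Col6a1 to Col6a2 ranged from 0.564 to 1.33 and Col6a3 to Col6a1 from 0.203 to 0.813 over the 9 libraries, both extremes of the latter and the low end of the former in the model (exact permutation p over 3 groups = 0.325 and 0.936). Col12a1 to Col14a1 was 5.47, 12.5 and 3.65 in the controls, 0.117, 2.63 and 0.0193 in the model and 33.3, 1.72 and 1.53 in SYD-H. The model libraries lay below all controls (log2 difference -5.12, SE 2.14, exact permutation p = 0.1, adjusted p = 0.233), and SYD-H overlapped both groups. Leaving out model library 2 moved this difference to -7.05, and leaving out model library 3 moved it to -3.50.

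Col1a1 to Col2a1, the ratio of the bone and fibrous to the cartilage fibril collagen, was 0.532, 5.63 and 0.722 in the controls, 2.0, 127 and 12.3 in the model and 10.8, 13.8 and 94.1 in SYD-H. All SYD-H libraries lay above all controls (log2 difference 4.22, SE 1.45, exact permutation p = 0.1, adjusted p = 0.35). The model overlapped the controls through control library 2, whose Col2a1 was at 348 FPKM against 8323 and 4468 in control libraries 1 and 3.

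**Figure D4:**
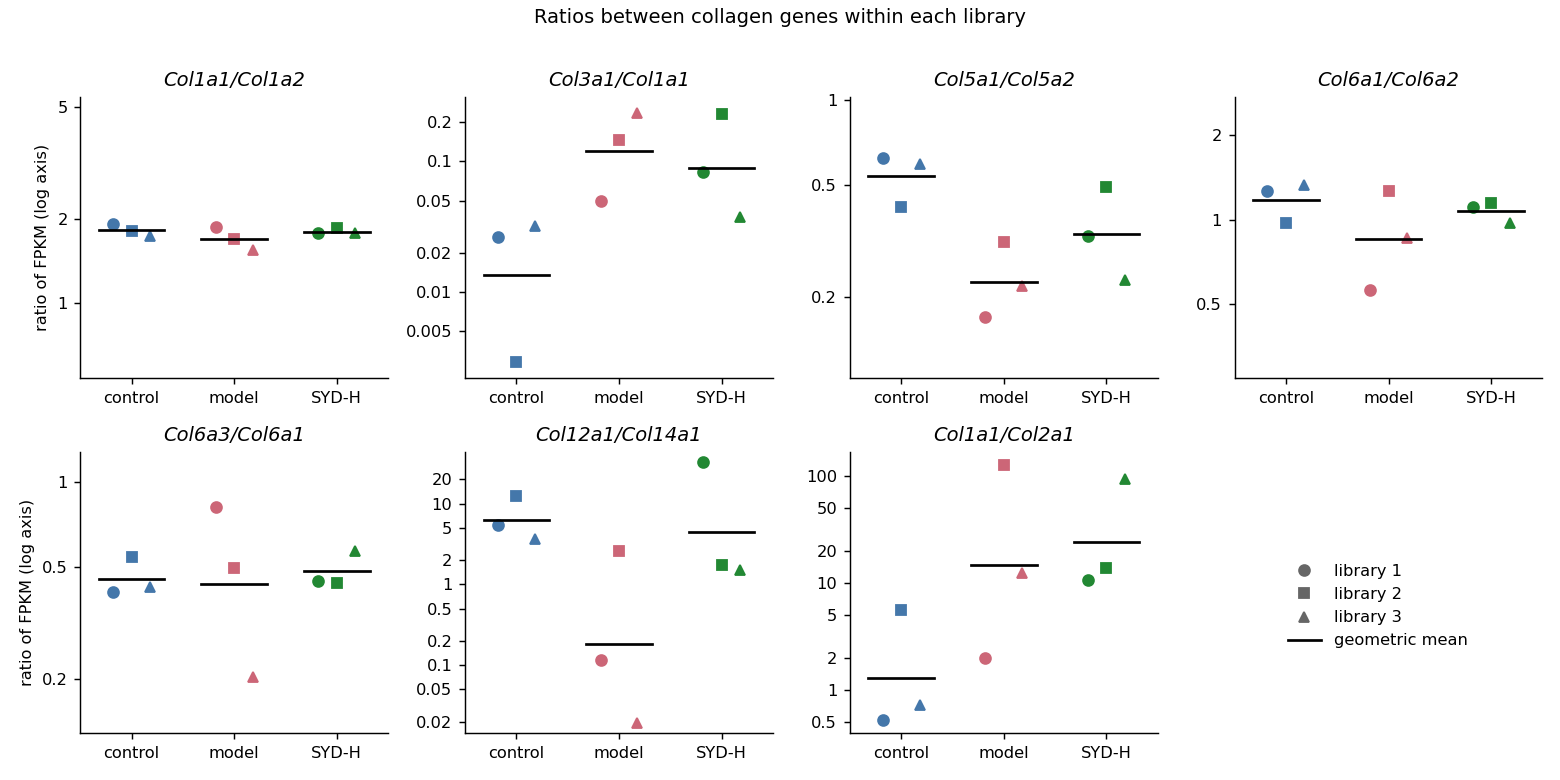
Ratio of FPKM between pairs of collagen genes within each library (log axes of different span), with the symbol giving the library number and the bar the geometric mean of the group. Col1a1/Col1a2 stays between 1.54 and 1.91, while Col3a1/Col1a1 is above 0.0318, the highest control, in all model and SYD-H libraries.

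Across the 9 libraries the members rose and fell with each other, except Col14a1. As a description over libraries that share their groups and scaling, Pearson r of log2(FPKM + 1) was 0.54 to 0.997 in the 36 pairs without Col14a1, with a median of 0.907, and -0.171 to 0.624 in the 9 pairs with it, with a median of 0.093. The highest value was that of Col1a1 with Col1a2. Among 3011 genes with a mean of at least 10 FPKM, the ones whose pattern was most like the mean of the members were Laptm4a (r = 0.986), Thbs2 (r = 0.985), Rrbp1 (r = 0.983), Ltbp3 (r = 0.976) and Timp2 (r = 0.961). Thbs2 encodes a thrombospondin of the matrix, Rrbp1 a ribosome-binding protein of the rough endoplasmic reticulum, Ltbp3 a binding protein of latent TGF-beta and Timp2 an inhibitor of metalloproteinases.

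Blood and bone markers also differed between the libraries. The summed FPKM of 4 erythroid markers (Hbb, Alas2, Ahsp and Slc4a1) was 1306, 3306 and 1680 in control libraries 1, 2 and 3, 6257, 52.6 and 7364 in the model and 223, 261 and 2171 in SYD-H. Of these 4, Ahsp (-3.22) and Slc4a1 (-3.45) were called lower in SYD-H against control, beside 9.22% of all genes, and 0 were called in the other comparisons. In each group Col1a1 and Col1a2 had the reverse order of this sum, while the median of the 10 members had it in the controls only. On the log2 scale the medians were 4.08, 6.90 and 4.90 in the model and 7.33, 7.52 and 5.45 in SYD-H. The 3 libraries with erythroid sums of 261 or less had member medians of 6.90 to 7.52 and the other 6 had 3.65 to 6.13. Hbb was at 40.5 FPKM in model library 2 and at 4559 and 5703 in model libraries 1 and 3, the ones lower in 9 of the 10 collagens. The 10 osteoblast and osteocyte markers summed to 1289 to 2053 FPKM in the controls, 2059, 4952 and 973 in model libraries 1, 2 and 3 and 4369 to 6680 in SYD-H, above all controls, with 0 of the 10 listed at 0 in any library. Of these 10, 3 were called higher (Bglap, Spp1 and Runx2) and 1 lower (Sost) in SYD-H against control, where 7.25% of all genes were called higher and 9.22% lower. In the model against control 1 was called lower (Phex, -1.28), beside 11.2% of all genes, and in SYD-H against model 0 were called. In the controls these sums, 2053, 1289 and 1984 in libraries 1, 2 and 3, had the same order as the member medians of 6.13, 3.65 and 5.57, and model library 2 was the highest of the model in both, with a median of 6.90. Within SYD-H the sums, 6013, 4369 and 6680, ran opposite to the medians of 7.33, 7.52 and 5.45. The 8 osteoclast markers summed to 616 to 1064 FPKM in the controls, 450 to 1792 in the model and 2010 to 2693 in SYD-H, above all libraries of both other groups. Of these 8, 4 were called higher in SYD-H against model, where 3.62% of all genes were. In SYD-H against control 6 were, Ctsk and Acp5 of bone resorption among them, beside 7.25% of all genes. Mmp9, called higher in SYD-H against model, was called lower in the model against control (-1.22), beside 11.2% of all genes. The 10 fibroblast and tendon markers summed to 434, 102 and 287 FPKM in control libraries 1, 2 and 3. Their sums were 147, 594 and 447 in the model and 617, 705 and 350 in SYD-H. In each group these sums had the same order as the member medians. Of the 10 fibroblast and tendon markers, 5 were called higher in SYD-H against control (Dcn, Lum, Dpt, Pdgfra and Tnmd), beside 7.25% of all genes. In the model against control 1 was (Dpt), beside 3.55%, and in SYD-H against model 0 were. Markers of synovial lining summed to 12.6 to 71.9, of skeletal muscle to 17.2 to 807 and of adipocytes to 8.28 to 127 FPKM over the 9 libraries. Of these last 3 lists, 1 of 5 synovial markers was called higher in the model and 1 in SYD-H against control, 0 of 7 muscle markers in any comparison, and of 4 adipocyte markers only Fabp4, in SYD-H against control. The part of these markers, and of the mitochondrial share, in the differences of the collagens was not tested.

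**Figure D5:**
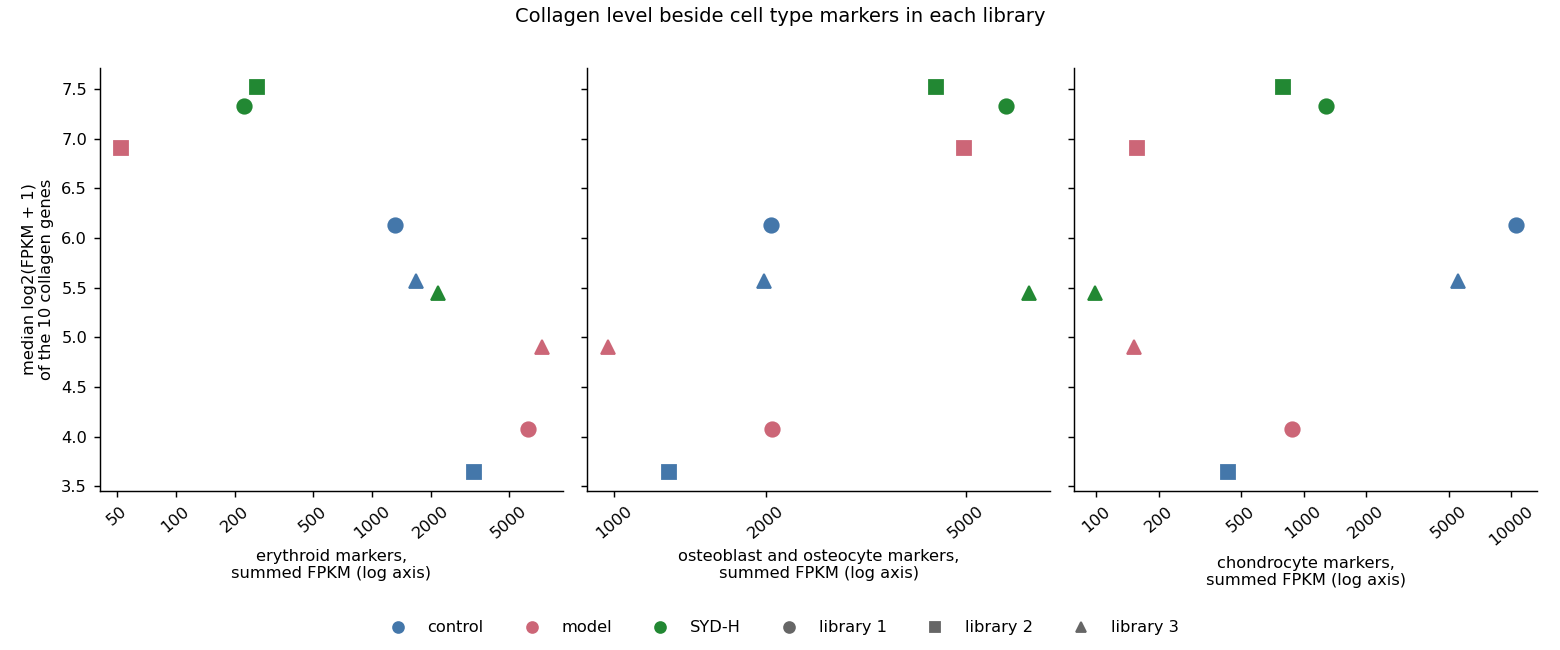
Median log2(FPKM + 1) of the 10 collagen genes (vertical) against the summed FPKM of erythroid, of osteoblast and osteocyte, and of chondrocyte markers (horizontal, log axes) in each of the 9 libraries. The 3 libraries with erythroid sums of 261 or less have collagen medians of 6.90 or more, and the same 3 libraries have osteoblast sums of 4369 or more, as does SYD-H library 3 with a median of 5.45. Their chondrocyte sums run from 158 to 1286.

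The collagens known for hyaline cartilage were looked at in the same way. Of 9 other fibrillar and cartilage collagens, all tested, 6 fell in the model against control by the same criteria (Col2a1, Col9a1, Col9a2, Col9a3, Col11a1 and Col11a2), beside 11.2% of all genes called lower. None of the 9 had an adjusted p under 0.05, and none rose. Col2a1 fell by 4.40 on the log2 scale (SE 1.53, limma adjusted p = 0.193), with 606, 39.0 and 56.1 FPKM in the model. In SYD-H against model 2 rose (Col11a2 and Col27a1), beside 3.62% of all genes called higher, and in SYD-H against control, where 9.22% were called lower, 1 fell, Col10a1 of hypertrophic cartilage (log2 change -3.64, SE 1.34, limma adjusted p = 0.118). Of 10 chondrocyte markers 6 were also called lower in the model against control, with a median of -3.34 over the 10. Of these 6, Col2a1, Col9a1 and Col11a1 are on both lists, and Hapln1 (-3.50), Cnmd (-4.07) and Matn3 (-5.07) are not.

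Of 25 other collagens 12 were tested, and 0, 0 and 6 were called in the 3 comparisons, the latter all higher in SYD-H than in control, beside 14.7%, 4.15% and 16.5% of all genes called and 7.25% called higher in the last. They were Col4a1 and Col4a2 of the basement membrane, Col15a1, Col18a1, Col13a1 and the type V chain Col5a3. Of these, 2 had an adjusted p under 0.05, as did 17.3% of all genes, so 2 of 12 is near the background. Col16a1 was not called in any comparison. Col5a3 was at 2.65, 1.34 and 2.07 FPKM in the controls, 1.74, 21.6 and 3.40 FPKM in the model and 25.0, 34.8 and 5.57 FPKM in SYD-H (log2 change 2.62 over control, SE 0.65, limma adjusted p = 0.0452). Col18a1 rose by 2.61 over control (SE 0.47, limma adjusted p = 0.0203). Of 8 endothelial and mural markers 7 were called higher in the same comparison, beside the same 7.25%. In the model against control 1 was called higher (Emcn), beside 3.55%. The sum of the 8 was 69.1, 38.2 and 54.4 FPKM in control libraries 1, 2 and 3. It was 32.8, 460 and 113 FPKM in the model and 279, 434 and 166 in SYD-H. In each group this sum had the order of the member medians of log2(FPKM + 1), and a link was not tested.

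Genes that fold, cut and crosslink procollagen were mostly not called. Of 24 tested, of 26 on the list, 0 were called in the model against control and 0 in SYD-H against model, with medians of -0.39 and 0.89. In SYD-H against control, where 7.25% of all genes were called higher and 17.3% had an adjusted p under 0.05 in either direction, 3 rose, each at a limma adjusted p under 0.05: Bmp1, the proteinase that removes the procollagen C-propeptide (log2 change 1.61, SE 0.32), Pcolce, its enhancer (1.51, SE 0.39), and Loxl1, a crosslinking oxidase (1.44, SE 0.31). Pcolce was at 78.7, 28.2 and 61.9 FPKM in the controls and 160, 155 and 133 FPKM in SYD-H, without overlap. Serpinh1, the collagen chaperone HSP47, was at 407, 80.3 and 213 FPKM in the controls, 105, 344 and 99.7 FPKM in the model and 306, 411 and 231 FPKM in SYD-H, and did not pass in any comparison, nor did the proline isomerase Ppib.

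Of 14 fibril-associated proteins tested, 6 rose in SYD-H against control, where 7.25% of all genes were called higher: the small leucine-rich proteoglycans Dcn (log2 change 1.96, SE 0.33), Lum (2.37, SE 0.45) and Ogn (2.22, SE 0.37), each at a limma adjusted p under 0.05, and Tnc, Dpt and Postn, at adjusted p of 0.0796, 0.118 and 0.0584. In the model against control Dpt, which binds decorin and collagen fibrils, rose by 3.85 (SE 0.87, limma adjusted p = 0.0797) and Thbs1 fell by 2.66 (SE 0.68, limma adjusted p = 0.105). Dpt was at 6.67, 0.123 and 3.53 FPKM in the controls and 23.4, 41.2 and 114 FPKM in the model, and, like Col14a1, was highest in model library 3. None was called in SYD-H against model, and the abundant Sparc, Bgn and Fn1 were not called in any comparison. Dcn, Lum and Dpt are also on the list of fibroblast and tendon markers.

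For the receptors and regulators the shares of all genes called higher are 3.55% in the model against control, 3.62% in SYD-H against model and 7.25% in SYD-H against control. Of 9 collagen receptors tested, Ddr2, the discoidin domain receptor of fibrillar collagen, rose by 1.81 in the model against control (SE 0.46, limma adjusted p = 0.103) and by 1.30 in SYD-H against control (SE 0.32, limma adjusted p = 0.0449). The integrin chain Itga10 and the collagen uptake receptor Mrc2 rose in SYD-H against model, both at a limma adjusted p of 0.723, and Itga10 and Itga11 rose in SYD-H against control. The shared chain Itgb1 was not called in any comparison. Of 10 regulators of TGF-beta and fibrosis, Tgfb2 rose by 1.24 in the model (SE 0.40, limma adjusted p = 0.166) and by 1.93 in SYD-H against control (SE 0.26, limma adjusted p = 0.0115). Acta2, the smooth muscle actin of myofibroblasts and vessel walls, rose by 4.22 in SYD-H against control (SE 0.59, limma adjusted p = 0.0126). Ccn2 and Tgfbr1 were called higher in SYD-H against model, and Tgfb1 lay within 0.10 of 0 on the log2 scale in each comparison.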

How the data were processed

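Groups came from the sample titles, and dose level and animals from the study's text. The authors deposited 1 table of FPKM per gene and library. Their processing notes name HISAT2 2.0.5 and a human build, although the genes carry rat Ensembl identifiers. The counting tool and rat build are not given in the sources used here. The protocol label names retina, whereas the samples are labelled cartilage. The members and gene lists were chosen with earlier results of these data known. All 10 members are named, and other genes only from the 3 most abundant tested genes of each list, its called genes and the 5 genes most like the members. Of the genes once listed, 2 are not reported here and 5 that matched no gene name were not used.

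In each library FPKM times gene length was a whole multiple of 1 step for 100% of values (tolerance 0.1 reads), which gave recovered reads. The deposited FPKM were divided by totals of 3636667 to 39425819, which follow the non-mitochondrial reads. No column with values per library was left out (0). The test was limma 3.58.1 in R 4.3.3 (lmFit, eBayes with trend) on log2(FPKM + 1) over 13898 genes with a mean of at least 0.5 FPKM, with the 6 libraries of each comparison and Benjamini-Hochberg adjustment over all genes, and was tested on simulated data. Ratios were tested by exact permutation. Alternatives were a pseudocount of 0.1, no filter, TPM, quantile normalization, 1 fit over all 9 libraries, the replicate number as block, voom on recovered reads, leaving out each library and, added after seeing the data, scaling to non-mitochondrial reads.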

Additional observations from a re-analysis of the deposited data

How the results depend on the processing

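Scaling moved the medians most, and leaving out 1 library the counts of called members. On the TPM scale the medians of all genes were -2.60, 1.22 and -1.31 in the model against control, SYD-H against model and SYD-H against control. Those of the members were -3.14, 3.18 and 0.10, with 3, 3 and 0 members called (75.2%, 3.81% and 43.4% of all genes). Col14a1 was at -0.21 in the model against control. Under quantile normalization 3 members were called in each comparison (14.7%, 3.89% and 18.3% of all genes), among them Col1a1 and Col1a2 at -4.41 and -3.05 in the model against control and Col1a1 at -1.93 in SYD-H against control, a reversal. Other results kept their direction where called. With a pseudocount of 0.1 the count of called members in the model against control was 0, Col14a1 being lost, beside 15.4% of all genes. With no filter the counts were 0, 0 and 1 (8.87%, 1.92% and 10.4% of all genes), with 1 fit over all 9 libraries 1, 5 and 2 (17.3%, 8.78% and 12.9%), and with voom on recovered reads 1, 4 and 2 (23.6%, 7.76% and 24.4%), where the 4 did not include Col12a1. Scaling to non-mitochondrial reads gave 1, 1 and 2 (15.9%, 4.32% and 20.4% of all genes).

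Correlations of deviations between same-numbered libraries ran from -0.267 to 0.194, and between libraries of different number from -0.3094 to 0.2625. With 3 libraries a group these values show no pairing by number and cannot exclude shared handling. With the replicate number as a block the counts of called members were 1, 4 and 1 (12%, 3.78% and 16.3% of all genes). The 4 were Col5a1, Col5a2, Col6a3 and Col12a1, and Col3a1 was no longer called in SYD-H against control.

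Leaving out 1 library at a time, where a group of 2 remained, gave 0 to 4, 0 to 8 and 1 to 5 called members. The shares of all genes called in these fits were 9.42% to 24.1%, 2.27% to 18% and 12.9% to 18.7%. Member medians were -1.02 to 0.28, 1.17 to 2.50 and 0.86 to 2.0. Of 7 ratios, 3 to 5, 0 to 3 and 2 to 5 were without overlap. Library 2 of the model set the upper counts of the first 2 comparisons and SYD-H library 3 that of the last. The highest ratio counts came without model library 1, model library 2 and control library 2. Using recovered reads in place of FPKM changes no ratio difference, since each gene's length is constant. The cause of these shifts was not tested. Depth limits Col12a1 and Col14a1 most, with 28 and 48 reads in model libraries 1 and 3 for the former and 55 in control library 2 for the latter.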
